A study of Mus musculus with 24 samples.

Results

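The transcripts of 10 enzymes of mitochondrial beta-oxidation were followed in mouse liver: Acadvl, Acadl, Acadm, Acads, Hadha, Hadhb, Hadh, Decr1, Eci1 and Etfdh. Every array probe carrying one of these gene names was taken, whatever its values, which gave 13 probes among 56605. All 13 passed the filter on dim probes, so that the enzymes stand as 10 of the 21335 genes tested. All 13 were well above background on 24 of 24 arrays, and 0 values were saturated.

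Livers came from 24 male C57Bl/6J mice, 6 in each of 4 groups. LWT mice have PPARα in hepatocytes and LKO mice lack it there, as far as the series title tells, and each genotype received either vehicle or CL316243, which activates beta3 adrenergic receptors. Mice were gavaged with 0.5% carboxymethyl cellulose as vehicle, or with the agonist (3 mg/kg) in it, at Zeitgeber time 10 h. All had free access to food, and their livers were collected in the dark phase, at Zeitgeber time 16 h. The labels call the agonist groups Beta3, and they give neither the mice's age nor the deleted part of Ppara or the promoter that drove its deletion. They call the mice of a group separate samples, without naming litters or cages.

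Beta-oxidation shortens a fatty acyl-CoA in the mitochondrial matrix by repeated rounds of dehydrogenation, hydration, a further dehydrogenation and thiolytic cleavage. The acyl-CoA dehydrogenases open each round and differ in the chain length they prefer, and their electrons pass through electron transfer flavoprotein and its dehydrogenase (Etfdh) to ubiquinone. PPARα is a fatty acid-activated nuclear receptor that is known to induce genes of this pathway in fasted liver, and beta3 receptors in mice lie mainly on adipocytes, where their stimulation releases fatty acids.

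In LWT livers the agonist raised 9 of the 10 transcripts, from 1.18-fold for Acads to 2.32-fold for Etfdh, and Hadh was the exception. Of all genes tested, 18.9% were called higher there. In LKO livers 1 of the 10 (Acadl) rose and 2 (Acads and Hadh) fell, where 20.9% of all genes were called higher and 19.4% lower. The agonist effect was lower in LKO than in LWT for all 10 by the test of the genotype by CL316243 interaction, against 3.24% of all genes. LKO livers held less of 8 transcripts under vehicle (0.778% of all genes) and of all 10 under the agonist (8.16%). Levels are log2 intensities relative to the 75th percentile of the same array, a difference of 1 is a doubling, and a gene was called at a Benjamini-Hochberg adjusted p under 0.05 in limma, adjusted over all 21335 genes.

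The labels were checked on the targeted gene and on cell markers. Ppara ran from 5.46 to 5.93 in LWT vehicle livers (median 5.66), from 5.70 to 6.42 in LWT agonist livers (6.35), from 4.81 to 5.18 in LKO vehicle livers (5.01) and from 3.06 to 4.85 in LKO agonist livers (4.51). The genotypes did not overlap in either treatment. The difference was called under the agonist (-1.91 log2, SE 0.20, adjusted p = 3.6e-07) and not under vehicle (-0.68, SE 0.20, adjusted p = 0.158), and whether this probe lies in the deleted part is not known here. Ppara itself was called higher after the agonist in LWT (0.55) and lower in LKO (-0.69), with a called interaction of -1.235. The cause of these changes was not tested. All 9 hepatocyte markers on the array were well above background on all arrays, and limma called 0 of 27 tests of them for genotype or interaction (3 at an unadjusted p under 0.05). After the agonist 3 of the 9 were called in LWT, all higher, and 5 in LKO, 4 higher and 1 lower. The median difference of the 9 was 0.14 in LWT and 0.15 in LKO, and the largest were 1.42 and 1.61. Their mean level ran from 8.29 to 8.40 in LWT vehicle and from 8.475 to 8.82 in LWT agonist livers. In LKO it ran from 8.28 to 8.59 under vehicle and from 8.51 to 8.80 under the agonist. The 31 tested markers of Kupffer, endothelial and stellate cells, cholangiocytes, T and B cells and skeletal muscle gave 0 calls in 93 limma tests for genotype or interaction (6 at an unadjusted p under 0.05) and 9 calls for the agonist in each genotype. Of all genes tested, 38.4% were called for the agonist in LWT and 40.3% in LKO, in either direction. Cfd (adipsin), 1 of 4 adipocyte markers tested, passed the filter on dim probes through the LWT groups alone. It was well above background on 6 of 6 arrays of both LWT groups but on 2 of 6 LKO vehicle and 3 of 6 LKO agonist arrays. The limma tests called Cfd lower in LKO in both treatments, but many LKO arrays held no clear signal of it. Neither size nor p-value is therefore given, and the calls are not read as a genotype difference. Adipoq was well above background on 0 to 3 of 6 arrays of a group and was not tested. The mean level of the 4 tested ran from -2.83 to -1.97 in LWT vehicle livers, -2.97 to -2.49 in LWT agonist livers, -3.88 to -2.39 in LKO vehicle livers and -3.46 to -2.86 in LKO agonist livers. Cfd is part of these means. Camp, 1 of 4 neutrophil markers tested, had an interaction of 0.42 (adjusted p = 0.0353) and was higher in LKO under the agonist by 0.40 (adjusted p = 0.00168). After the agonist all 4 neutrophil markers were called in LWT (2 higher and 2 lower, from -0.41 to 1.48) and 2 were called higher in LKO, where the 4 ran from -0.28 to 2.30. The mean level of these 4 ran from -1.37 to -0.27 and from -1.42 to 0.27 in LWT vehicle and agonist livers, and from -1.22 to -0.78 and from -0.73 to 1.099 in LKO, while Ltf was not well above background on any array. The part of these cells in the enzymes' differences was not tested, and in bulk liver fewer cells of a type and less RNA per cell cannot be told apart.

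The array of LWT agonist mouse 3 stood apart for these genes. It was the lowest of its group for all 10 enzymes, with a mean level of 5.35 against 5.63 to 5.77 in the other 5 mice. Leaving it out kept 9 enzymes called in LWT, 10 in the interaction and 10 between genotypes under the agonist. LWT vehicle mouse 6 was in turn the highest of its group for all 10. The mice lay on 3 slides, 2 of each group on a slide.

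**Figure D1:**
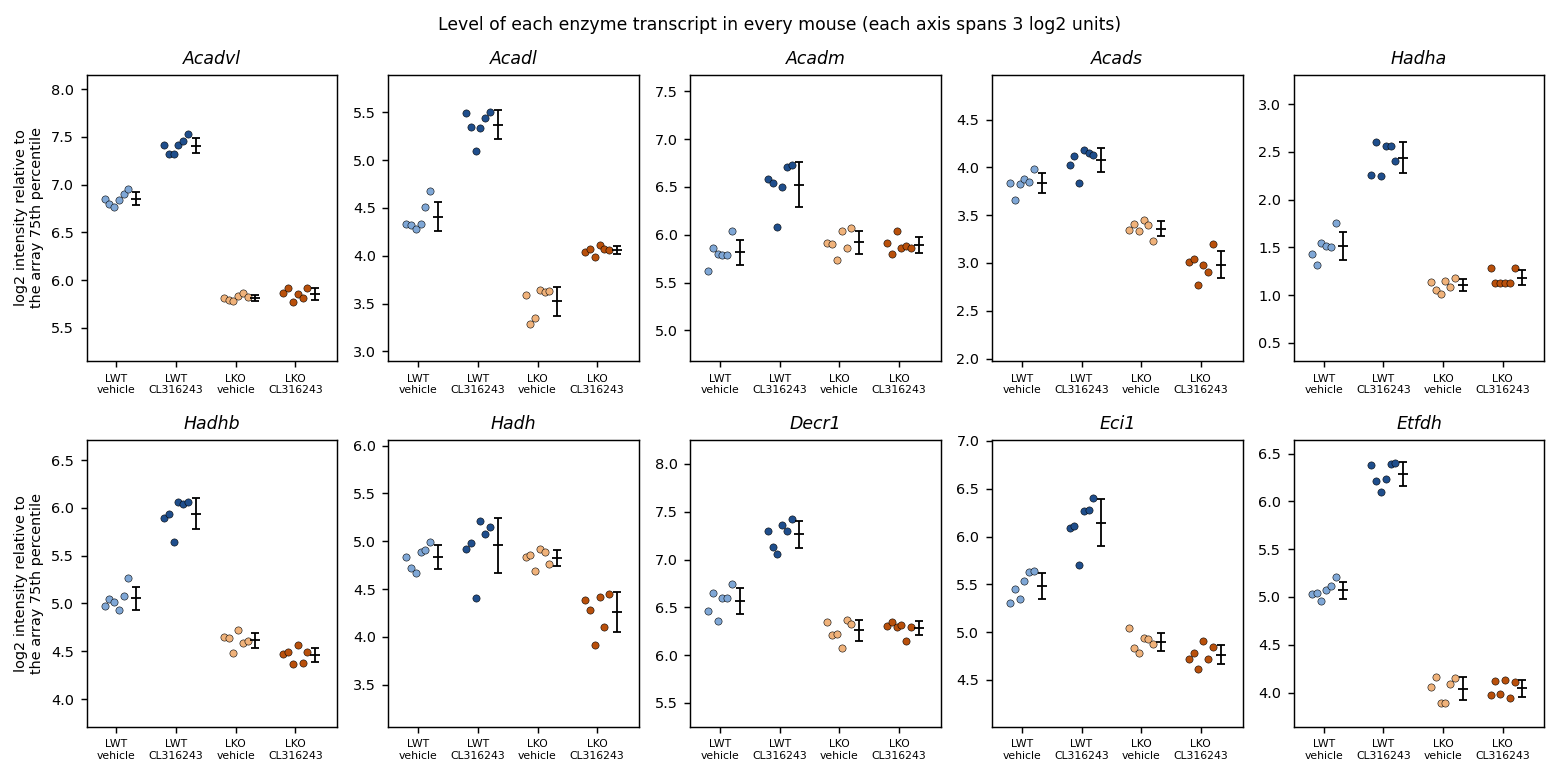
Level of each of the 10 enzyme transcripts in every mouse, as log2 intensity relative to the array's 75th percentile (vertical axes, each spanning 3 log2 units), for the 4 groups of 6 mice. Points are mice and bars are the group mean ± SD. In LWT the agonist group lies above the vehicle group without overlap for 8 of 10 transcripts, and for Etfdh the lowest agonist mouse is at 6.10 against 5.21 for the highest vehicle mouse.

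Among the 4 acyl-CoA dehydrogenases of fatty acids, the enzyme for very long chains was lower in LKO in both treatments and rose in LWT. Acadvl ran from 6.77 to 6.96 in LWT vehicle livers (median 6.84), from 7.32 to 7.53 in LWT agonist livers (7.41), from 5.78 to 5.87 in LKO vehicle livers (5.82) and from 5.77 to 5.92 in LKO agonist livers (5.86). The 2 LWT groups overlapped neither each other nor the LKO groups, and the 2 LKO groups overlapped. The agonist raised it 1.47-fold in LWT (0.56 log2, SE 0.05, adjusted p = 1.38e-08). In LKO its difference was 0.04 (95% interval -0.06 to 0.14, adjusted p = 0.557). LKO livers held 2.05-fold less under vehicle (-1.03, adjusted p = 3.37e-12) and 2.93-fold less under the agonist (-1.55, adjusted p = 3.66e-16).

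Acadl, the long-chain enzyme, was the 1 member that the agonist raised in both genotypes. Its level was 4.28 to 4.68 in LWT vehicle livers (median 4.33), 5.10 to 5.50 in LWT agonist livers (5.39), 3.29 to 3.64 in LKO vehicle livers (3.61) and 3.99 to 4.11 in LKO agonist livers (4.06). No pair of these groups overlapped, and the LKO agonist group stayed below the LWT vehicle group. The rise was 1.95-fold in LWT (0.96, SE 0.08, adjusted p = 8.47e-09) and 1.45-fold in LKO (0.53, SE 0.08, adjusted p = 2.71e-05). The interaction was the smallest of the 10 (-0.43, SE 0.12, adjusted p = 0.0302). It lost its call when any 1 of 10 mice was left out (LWT vehicle 1, 2, 3 and 4, LWT agonist 1, 5 and 6, LKO vehicle 4, 5 and 6), with values from -0.41 to -0.40 and adjusted p from 0.0503 to 0.0567. Quantile normalization (adjusted p = 0.0549), the deposited log2 table (0.0642) and no filter on dim probes (0.0855) ended the call as well.

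Acadm, the medium-chain enzyme, differed between genotypes under the agonist and not detectably under vehicle. It ran from 5.62 to 6.03 in LWT vehicle livers (median 5.80), from 6.09 to 6.73 in LWT agonist livers (6.56), from 5.74 to 6.07 in LKO vehicle livers (5.91) and from 5.80 to 6.04 in LKO agonist livers (5.87). The LWT agonist group lay above the other 3 groups, which overlapped one another. The rise in LWT was 1.64-fold (0.71, SE 0.09, adjusted p = 2.71e-06), while the LKO difference was -0.03 (95% interval -0.21 to 0.16, adjusted p = 0.846). The genotype difference was 0.11 under vehicle (95% interval -0.08 to 0.29, adjusted p = 0.917) and -0.63 under the agonist (adjusted p = 2.5e-05).

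Acads, the short-chain enzyme, moved in opposite directions in the 2 genotypes. Its level was 3.66 to 3.99 in LWT vehicle livers (median 3.84), 3.84 to 4.18 in LWT agonist livers (4.12), 3.23 to 3.45 in LKO vehicle livers (3.37) and 2.76 to 3.20 in LKO agonist livers (3.00). The LWT groups overlapped and the LKO groups did not. The agonist raised it 1.18-fold in LWT (0.24, SE 0.07, adjusted p = 0.0123) and lowered it 1.30-fold in LKO (-0.38, SE 0.07, adjusted p = 0.000271). The interaction was -0.61 (SE 0.10, adjusted p = 0.000512).

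PPARα binds with its partner RXR to repeats of the hexamer AGGTCA, so the promoters were searched for it. RefSeq windows of GRCm38.p6, from 250 bases before to 50 bases after a gene's start, held 9 of the 10 genes, all but Decr1. The direct repeat of 2 such hexamers with any 1 base between them (called DR1), with up to 2 mismatches on either strand, lay in 0 of the 9 windows, against 3.86% of all 32851 windows in the table. The exact hexamer on either strand lay in 2 of 9, against 16.3% of all windows. They belong to Acadvl, whose vehicle genotype difference was called, and Acadm, whose was not, and are shown as the exact matches among the 9. The 60 bases around each hexamer are printed 5′ to 3′ on the strand of the gene, with the hexamer or its reverse complement in capitals. Both genes are on the minus strand.
Acadvl, chr11:70015483-70015542: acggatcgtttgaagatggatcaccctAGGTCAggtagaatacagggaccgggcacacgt
Acadm, chr3:153944834-153944893: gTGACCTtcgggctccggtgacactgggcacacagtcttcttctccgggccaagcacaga
The hexamer began 87 bases before the start of Acadvl and 249 before that of Acadm. The GC box GGGCGG on either strand lay in 7 of the 9 windows (Acadl, Acads, Hadha, Hadhb, Hadh, Eci1 and Etfdh), against 35.7% of all windows. The only box of Hadha is counted for Hadhb too, because their windows overlap, so the 7 are not all separate sites. CCAAT on either strand lay in 2 (Hadh and Etfdh), against 37.4%. A match is a string of letters and was not measured as a site, and enhancers outside the windows were not searched.

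Hadha and Hadhb encode the alpha and beta subunits of the trifunctional protein, which carries out the later steps of the round on long chains at the inner membrane. They lie head to head on chromosome 5, Hadha on the minus and Hadhb on the plus strand, with 272 bases between their RefSeq starts. The stretch that both promoter windows cover is shown because the transcripts on either side of it both rose in LWT livers, with the GC box in capitals and the letters of the plus strand.
Hadha and Hadhb, chr5:30155003-30155230: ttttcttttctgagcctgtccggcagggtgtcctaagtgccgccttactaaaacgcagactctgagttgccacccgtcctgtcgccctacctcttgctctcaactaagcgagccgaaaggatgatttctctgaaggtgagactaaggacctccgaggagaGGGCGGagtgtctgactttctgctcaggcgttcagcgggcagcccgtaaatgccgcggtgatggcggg
Hadha ran from 1.32 to 1.75 in LWT vehicle livers (median 1.51), from 2.25 to 2.60 in LWT agonist livers (2.48), from 1.01 to 1.18 in LKO vehicle livers (1.11) and from 1.12 to 1.29 in LKO agonist livers (1.13). Hadhb ran from 4.93 to 5.27 in LWT vehicle livers (5.03), from 5.65 to 6.06 in LWT agonist livers (5.99), from 4.48 to 4.73 in LKO vehicle livers (4.62) and from 4.36 to 4.56 in LKO agonist livers (4.48). For both subunits the LWT agonist group was highest, the LWT vehicle group came next without overlap, and the 2 LKO groups overlapped below them.

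The agonist raised Hadha 1.90-fold (0.93, SE 0.07, adjusted p = 2.78e-09) and Hadhb 1.85-fold (0.89, SE 0.07, adjusted p = 3.3e-09) in LWT. In LKO the difference was 0.08 for Hadha (95% interval -0.07 to 0.23, adjusted p = 0.422) and -0.15 for Hadhb (adjusted p = 0.0925). The Hadhb value in LKO was called without LWT agonist mouse 3, which is in neither group of that comparison but changes the shared spread (-0.15, adjusted p = 0.0481), and under quantile normalization (-0.19, adjusted p = 0.0475). The interactions were -0.85 for Hadha (SE 0.10, adjusted p = 1.47e-05) and -1.04 for Hadhb (SE 0.10, adjusted p = 6.05e-07). Under vehicle LKO livers held 1.33-fold less Hadha (-0.41, adjusted p = 0.00309) and 1.36-fold less Hadhb (-0.44, adjusted p = 0.000861). Under the agonist they held 2.39-fold less Hadha and 2.79-fold less Hadhb.

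Hadhb had 2 further probes, shown because they differ from the main one in the LKO livers. Positions are those of the array annotation, build mm9, plus strand, and whether they fall in exons was not determined here. The span of the upper probe is 1 base shorter than the probe.
Hadhb, chr5:30503442-30503500: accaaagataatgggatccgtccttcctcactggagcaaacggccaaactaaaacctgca
Hadhb, chr5:30494754-30494813: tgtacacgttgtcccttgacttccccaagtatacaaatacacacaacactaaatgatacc
The upper probe rose by 1.003 in LWT (SE 0.08, adjusted p = 3.71e-09) and fell by 0.43 in LKO (SE 0.08, adjusted p = 0.000208), where its 2 groups did not overlap. The lower probe, which the array assigns to an Ensembl transcript of its own, rose by 1.88 in LWT (SE 0.16, adjusted p = 9.56e-09) and differed by 0.35 in LKO (SE 0.16, adjusted p = 0.0881). All 3 Hadhb probes had a called interaction (-1.04 on the main probe, -1.44 and -1.53 on these). The vehicle genotype difference was called on the main probe and not on these 2 (-0.29, adjusted p = 0.0981, and -0.42, adjusted p = 0.361), with p-values here adjusted over all 32041 kept probes.

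Hadh, the matrix hydroxyacyl-CoA dehydrogenase for shorter chains, did not share the rise. It ran from 4.66 to 4.997 in LWT vehicle livers (median 4.86), from 4.41 to 5.21 in LWT agonist livers (5.03), from 4.69 to 4.92 in LKO vehicle livers (4.85) and from 3.91 to 4.45 in LKO agonist livers (4.33). The LKO agonist group was low, and the other 3 overlapped. In LWT the difference was 0.12 (95% interval -0.11 to 0.35, adjusted p = 0.425), or 0.23 without LWT agonist mouse 3 (adjusted p = 0.0508). In LKO the agonist lowered Hadh 1.48-fold (-0.57, SE 0.11, adjusted p = 0.000339). The genotypes did not differ detectably under vehicle (-0.01, 95% interval -0.24 to 0.22, adjusted p = 0.997). Under the agonist LKO was lower by 1.62-fold (-0.70, adjusted p = 9.04e-05), with overlap between the groups through LWT agonist mouse 3. The interaction of -0.69 (SE 0.16, adjusted p = 0.0101) thus combined a fall in LKO with no called change in LWT.

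The auxiliary enzymes Decr1 and Eci1 prepare unsaturated fatty acids for the round, Decr1 by reducing conjugated dienoyl-CoA and Eci1 by shifting a double bond. Decr1 ran from 6.35 to 6.74 in LWT vehicle livers (median 6.60), from 7.06 to 7.43 in LWT agonist livers (7.30), from 6.08 to 6.37 in LKO vehicle livers (6.28) and from 6.14 to 6.35 in LKO agonist livers (6.30). Eci1 ran from 5.30 to 5.64 in LWT vehicle livers (5.49), from 5.71 to 6.41 in LWT agonist livers (6.19), from 4.78 to 5.05 in LKO vehicle livers (4.90) and from 4.62 to 4.91 in LKO agonist livers (4.75). Both were high in LWT agonist livers alone among the 4 groups, and the LKO groups overlapped each other. The LWT vehicle group overlapped the LKO vehicle group for Decr1 and not for Eci1.

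Decr1 rose 1.62-fold (0.70, SE 0.07, adjusted p = 1.97e-07) and Eci1 1.58-fold (0.66, SE 0.09, adjusted p = 8.96e-06) in LWT. In LKO the differences were 0.02 (95% interval -0.13 to 0.18) and -0.13 (-0.33 to 0.06), neither called. The interactions were -0.67 for Decr1 (adjusted p = 0.000236) and -0.79 for Eci1 (adjusted p = 0.000482). Under vehicle Eci1 was 1.499-fold lower in LKO (-0.58, adjusted p = 0.00073). Decr1 was 1.24-fold lower (-0.31, SE 0.07, adjusted p = 0.0367), a call that was lost when any 1 of 7 mice was left out (LWT vehicle 2, 4, 5 and 6, LKO vehicle 2, 3 and 4), with values from -0.30 to -0.27 and adjusted p from 0.0816 to 0.112. It was also lost with no filter on dim probes (adjusted p = 0.12) and with the vehicle groups fitted alone (0.0872).

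Etfdh, which hands the electrons of every acyl-CoA dehydrogenase to ubiquinone, gave the largest agonist effect, interaction and agonist genotype difference of the 10. It ran from 4.95 to 5.21 in LWT vehicle livers (median 5.06), from 6.10 to 6.40 in LWT agonist livers (6.30), from 3.89 to 4.17 in LKO vehicle livers (4.07) and from 3.94 to 4.13 in LKO agonist livers (4.05). The LWT groups were separate from each other and from both LKO groups, which overlapped. In LWT it rose 2.32-fold (1.22, SE 0.07, adjusted p = 2.17e-11). In LKO the difference was 0.00 (SE 0.07, 95% interval -0.14 to 0.14, adjusted p = 0.985), and the interaction was -1.21 (SE 0.10, adjusted p = 2.52e-08). LKO livers held 2.04-fold less under vehicle (-1.03, adjusted p = 1.13e-09) and 4.74-fold less under the agonist (-2.24, adjusted p = 2.49e-16).

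A further Etfdh probe, assigned by the array to another Ensembl transcript, is shown because its agonist effect was larger (mm9, minus strand of the gene).
Etfdh, chr3:79423588-79423647: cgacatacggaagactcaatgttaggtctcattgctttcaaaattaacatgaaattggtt
It ran from -1.15 to -0.20 in LWT vehicle livers (median -0.78), from 0.77 to 1.09 in LWT agonist livers (0.93), from -1.83 to -1.29 in LKO vehicle livers (-1.68) and from -1.90 to -1.18 in LKO agonist livers (-1.34). The LWT agonist group was again highest and the LWT vehicle group next, and the LKO groups overlapped below them. It rose by 1.68 in LWT (SE 0.13, adjusted p = 3.38e-09) and differed by 0.27 in LKO (SE 0.13, adjusted p = 0.119), with an interaction of -1.42 (SE 0.19, adjusted p = 4.16e-05).

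**Figure D2:**
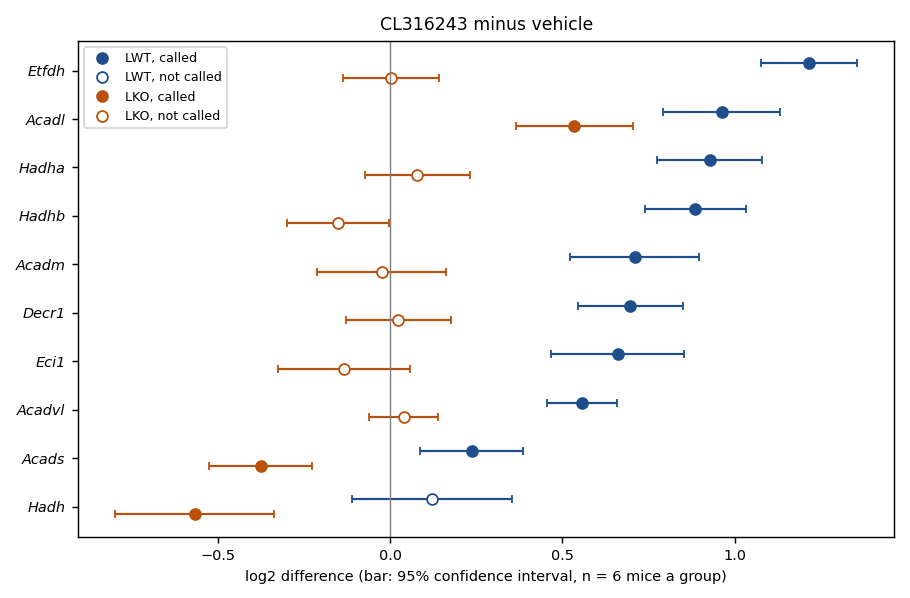
CL316243 minus vehicle on the log2 scale (horizontal axis) for each enzyme, in LWT and in LKO, from the limma fit with 6 mice a group. Points are differences, bars are 95% confidence intervals and filled points are called. In LWT 9 of 10 are called above 0, from 0.24 for Acads to 1.22 for Etfdh, and in LKO Acadl is called above 0 and Acads and Hadh below it.

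Against the whole array, the agonist counts read as follows. In LWT 9 of 10 enzymes were called higher and 0 lower, where 18.9% of all genes were called higher (38.4% in either direction), and the median difference was 0.70 against 0.01 over all genes. The 2 groups did not overlap for 8 of 10, all higher, where 10% of all genes were separate in that direction. In LKO 3 of 10 were called, where 40.3% of all genes were (20.9% higher and 19.4% lower), so that share was not above the background. The LKO median was -0.01 against 0.03 over all genes. In the interaction 10 of 10 were called lower, where 3.24% of all genes were (5.4% in either direction), with a median of -0.71 against 0.03. The LWT sign held on all 3 slides for 9 of 10 (Hadh gave 0.35, -0.09 and 0.10), and the interaction was negative on all 3 slides for all 10.

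Between genotypes, 8 of 10 were called lower in LKO under vehicle, where 0.778% of all genes were (1.18% in either direction). The median difference was -0.46 against -0.02 over all genes, and 7 were separate, where 1.1% of all genes were separate and lower. Under the agonist 10 of 10 were called lower, where 8.16% of all genes were (15.9% in either direction). The median was -1.29 against 0.01, and 9 were separate, where 4.04% of all genes were. These comparisons share arrays with the agonist comparisons and are not independent of them.

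**Figure D3:**
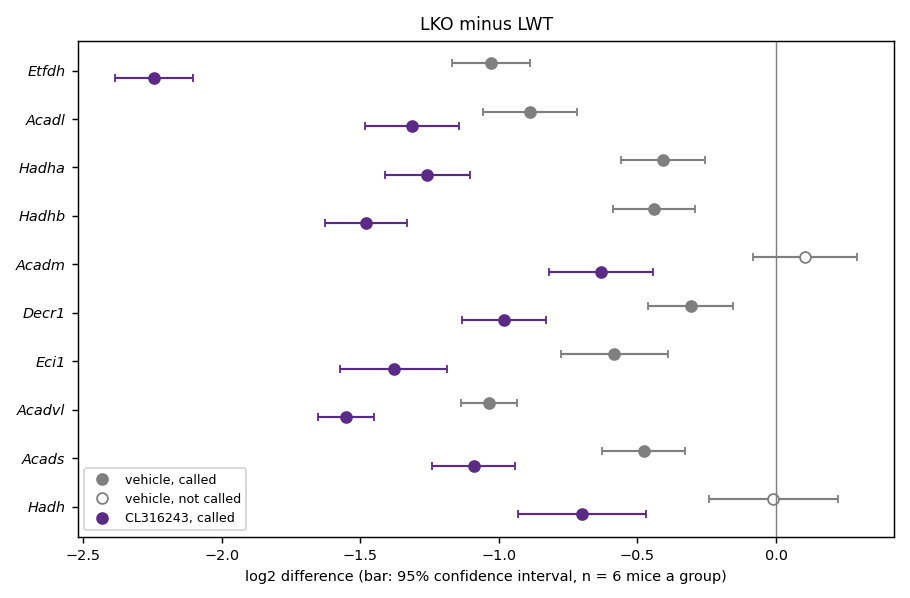
LKO minus LWT on the log2 scale (horizontal axis) for each enzyme, under vehicle and under CL316243, from the limma fit with 6 mice a group. Points are differences, bars are 95% confidence intervals and filled points are called. All 10 agonist differences are called below 0, from -0.63 for Acadm to -2.24 for Etfdh, and under vehicle Acadm (0.11) and Hadh (-0.01) are not called.

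A list of other enzymes, taken here as those of the mitochondrial round, changed less uniformly. Their location in the cell was not examined, and for Eci2 and Acad11 it may include peroxisomes. Of 10 tested, 5 rose and 1 fell in LWT, and 4 had a lower response in LKO, with a median interaction of -0.36. Eci2, a further enoyl-CoA isomerase, rose by 1.28 in LWT (adjusted p = 1.32e-09) and by 0.60 in LKO (adjusted p = 4.87e-05). Acad11, an acyl-CoA dehydrogenase, rose by 0.85 in LWT (adjusted p = 2.18e-06) and had an interaction of -0.97 (adjusted p = 0.000239). Etfb, the beta subunit of electron transfer flavoprotein that Etfdh oxidises, rose by 0.37 in LWT (adjusted p = 0.000108), and Acaa2, the thiolase of the round, by 0.35 (adjusted p = 0.000111). Echs1, the hydratase for shorter chains, fell in LWT (-0.29, adjusted p = 0.0332) and in LKO (-0.64, adjusted p = 5.46e-05), so that it, like Hadh, was lower after the agonist in LKO.

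Entry of fatty acids into mitochondria depends on Cpt1a, Slc25a20 and Cpt2, the carnitine acyltransferases and the carrier between them. All 3 rose in LWT, Cpt1a by 1.15 (adjusted p = 4.09e-06), Cpt2 by 1.05 (adjusted p = 1.4e-07) and Slc25a20 by 1.38 (adjusted p = 4.32e-08). The response was lower in LKO for Slc25a20 (interaction -1.09, adjusted p = 0.000635) and Cpt2 (-0.99, adjusted p = 0.000225). Cpt1a rose in LKO too (0.83, adjusted p = 0.000173), and its interaction was not called (-0.32, adjusted p = 0.473).

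Peroxisomes run a like spiral with other enzymes. Of 10 counterparts tested, 8 rose and 1 (Acox3) fell in LWT, and 5 had a lower response in LKO. Ehhadh, the bifunctional hydratase and dehydrogenase, rose by 3.98 in LWT (adjusted p = 3.35e-15) and fell by 0.80 in LKO (adjusted p = 8.42e-05), a larger interaction (-4.77) than that of any of the 10 mitochondrial enzymes. Eci3, an isomerase, rose by 1.45 in LWT, Acaa1b, a thiolase, by 1.35, and Hsd17b4, the other bifunctional enzyme, by 0.79. Acaa1b and Eci3 have close relatives on the array (Acaa1a and Eci2), and whether their probes share signal was not tested.

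The acyl-CoA dehydrogenases of amino acid breakdown did not rise with their relatives in LWT. Ivd (leucine), Acadsb (isoleucine), Acad8 (valine) and Gcdh (lysine and tryptophan) all fell in LWT, by 0.72, 0.22, 0.36 and 0.40, and all fell in LKO, by 0.86, 0.40, 0.42 and 0.55. In LKO their relative Acads fell too (-0.38), while Acadl rose and Acadvl and Acadm were not called. The interactions of the amino acid enzymes, from -0.17 to -0.06, were not called. Between genotypes limma called Acadsb higher in LKO under vehicle (0.31, adjusted p = 0.0158) and Gcdh lower in LKO under the agonist (-0.28, adjusted p = 0.0359). Of 14 genes of the citric acid cycle, which burns the acetyl-CoA that beta-oxidation yields, 4 rose and 1 fell in LWT, and 3 rose and 6 fell in LKO. The 5 calls in LWT are a share close to the 38.4% of all genes called there, and 40.3% were called in LKO. Fumarase (Fh1) rose by 1.15 in LWT (adjusted p = 6.12e-05) and by 1.15 in LKO (adjusted p = 6.44e-05). Suclg1, a subunit of succinyl-CoA ligase, had an interaction of -0.41 (adjusted p = 0.00245), and Idh3b, a subunit of isocitrate dehydrogenase, of -0.32 (adjusted p = 0.0266).

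**Figure D4:**
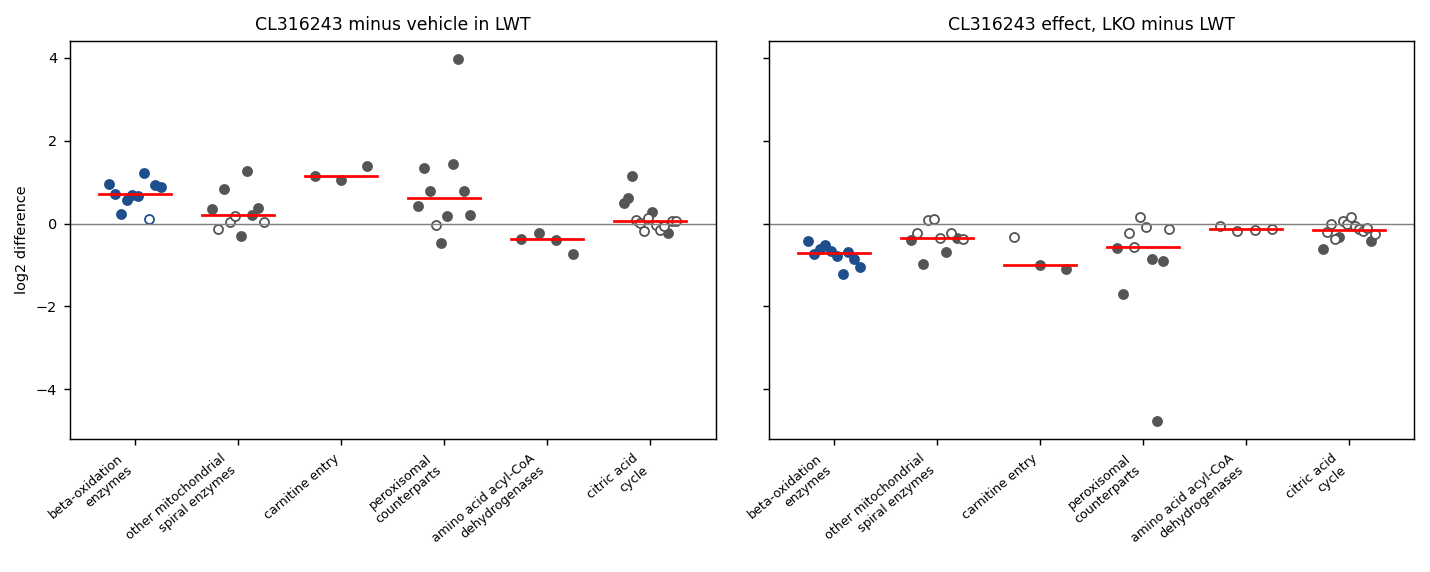
Log2 difference for CL316243 minus vehicle in LWT (left panel) and for the CL316243 effect in LKO minus that in LWT (right panel), per gene, in the 10 beta-oxidation enzymes and 5 related gene lists. Points are genes, filled where called, and red lines are list medians. The 10 enzymes have a median of 0.70 on the left and -0.71 on the right, and the 4 amino acid acyl-CoA dehydrogenases have medians of -0.38 and -0.14.

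The genes most like the enzymes over the 24 arrays were sought by Pearson correlation with the mean of the enzymes' z-scores, among 13870 genes. Adck2 came first (0.98), before Hsd17b4 (0.978), Acot8 (0.977), Abcd3 (0.975) and Acaa2 (0.974). Acot8 is a peroxisomal acyl-CoA thioesterase and Abcd3 a peroxisomal membrane transporter. Within the enzymes, the correlation of each with the mean of the other 9 ran from 0.618 for Hadh and 0.771 for Acadm to 0.990 for Eci1 and 0.993 for Hadhb. These correlations describe 24 arrays that fall into 4 groups, so they carry the differences between groups given above and no test.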

How the data were processed

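Liver RNA (200 ng a mouse) of 24 mice was labelled with Cy3 and hybridised to 24 one-colour Agilent arrays. The deposited scanner tables hold spot intensities, background-subtracted and on a linear scale, which the authors extracted in Agilent software (Feature Extraction 10.10.1.1) per the submitters' processing notes and the file headers. The deposited series table holds log2 values. These were reproduced to within 0.01 for 99.97% of values by quantile normalizing the log2 median signal of its 31367 probes, and the table was used as an alternative.

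Here processed intensities were taken to log2, spots marked as outliers by the scanner software were left out, replicate spots were averaged per probe, and the log2 of the array's 75th percentile (397.4 to 577.7) was subtracted. To be kept, a probe had to be well above background in no fewer than 4 of the 6 mice of some group, and to have 3 or more values in each group. That left 32041 of 56605 probes, and the brightest kept probe stood for its gene. In place of a depth, 26989 to 34204 probes per array were well above background. The number of arrays limits the precision, with a median standard error of 0.13 for a difference between groups and 0.19 for the interaction.

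Group means were estimated from all 24 arrays together with limma 3.58.1 in R 4.3.3 (lmFit and eBayes) for 5 comparisons, with Benjamini-Hochberg adjustment over 21335 genes, or over all kept probes where a gene's further probes are given. P-values set each difference against the spread between mice within the groups, which limma estimates from all 24 arrays and moderates over genes. Any part of that spread due to litters or cages cannot be told apart, as the labels do not name them. The fitting code was run on simulated data, with independent normal noise and known changes in few genes of the LWT agonist group alone. That differs from these data, where 38.4% of all genes were called for the agonist in LWT. The run therefore checks the code and not the error rates of the calls here. The labels give groups the same replicate numbers, and 11 alternative settings and the omission of each mouse were tried. The text names every enzyme and probe of the set, up to 4 called genes of largest change in each related list, every gene of a list of 6 or fewer, and the 5 genes most alike over arrays. Acox3, Cfd, Adipoq, Camp and Ltf are named beyond that rule, after their values were seen. The enzymes and the gene lists were chosen with earlier results of these data known. Probe positions are those of the array annotation (mm9), and promoter sequences are those of RefSeq (GRCm38.p6). Protein sequences were not used here.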

Additional observations from a re-analysis of the deposited data

Results flagged for a closer look

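The agonist effect differed between the genotypes for every one of the 10 enzymes by the interaction test in limma. The LKO effect minus the LWT effect, in log2 units, was -1.21 for Etfdh, -1.04 for Hadhb, -0.85 for Hadha, -0.795 for Eci1, -0.735 for Acadm, -0.689 for Hadh, -0.673 for Decr1, -0.614 for Acads, -0.518 for Acadvl and -0.427 for Acadl. The effects behind these values were not alike. Acadl rose in both genotypes and less in LKO, Acads rose in LWT and fell in LKO, and Hadh fell in LKO without a called change in LWT.

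Of the 40 sets of 6 mice (10 enzymes in 4 groups), 3 held a mouse far from the others by Dixon's criterion, which chance meets in about 1 in 20. LWT agonist mouse 3 was at 6.086 for Acadm, where the other 5 ran from 6.496 to 6.732, and at 4.409 for Hadh, where the others ran from 4.919 to 5.211. LKO agonist mouse 5 was at 6.144 for Decr1, where the others ran from 6.294 to 6.346. Without LWT agonist mouse 3 the agonist effect in LWT was 0.80 for Acadm in place of 0.71 and 0.23 for Hadh in place of 0.12.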

How the results depend on the processing

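The counts of enzymes called varied little. Over the alternatives and with each mouse left out, they were 9 in LWT, 3 to 4 in LKO, 9 to 10 in the interaction, 7 to 8 between genotypes under vehicle and 10 under the agonist. The interaction with the groups of the comparison alone uses all 4 groups and so has no such alternative. Signs turned where the difference was near 0 and not called. The LKO agonist effect of Etfdh was -0.0255 with normexp background correction, -0.0006 with quantile normalization and -0.0031 in the deposited log2 table. That of Acadvl was -0.0043 and -0.0175, and that of Decr1 -0.0233 and -0.0144, in the latter 2 settings. The vehicle genotype difference of Hadh was 0.0087 and 0.0259 in them. With 1 mouse left out, the LKO effect ran from -0.0285 to 0.0274 for Etfdh, from -0.0127 to 0.0509 for Decr1 and from -0.0617 to 0.0046 for Acadm, and the vehicle difference of Hadh from -0.0432 to 0.0232. The cause of these changes was not tested. Keeping dim probes raised the genes tested to 37074, and the median agonist difference over all genes moved from 0.01 to 0.11 in LWT and from 0.03 to 0.10 in LKO. That setting called 664 genes in the interaction and 167 between genotypes under vehicle, against 1153 and 251. Fitting only the 2 groups called 2203 genes between genotypes under the agonist, against 3393, and fitting all 32041 kept probes called 1908 probes in the interaction. Allowing 3 mismatches to DR1 gave 2 promoters in place of 0, those of Hadh and Acadm, where 24.6% of all windows match.

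With the replicate number as a block, 9, 3, 10, 8 and 10 enzymes were called in the 5 comparisons, as without it. Over all genes, 8310 were called in LWT and 1217 in the interaction with the block, against 8182 and 1153 without it. Deviations of same-numbered mice correlated by -0.183 to 0.424 (mean 0.0577), and those of differently numbered mice by -0.466 to 0.371 (mean -0.011). These correlations cannot settle whether the numbers mark shared litters, cages or handling, which the labels do not give. Slide as a block changed no count of enzymes, and slide itself was called for 47 of 21335 genes and 0 of the 10.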
